A study of Mus musculus with 27 samples.

Results

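Regions of histone H3 lysine 4 (H3K4) methylation were described at 10 genes of the myocardin, SRF and smooth muscle pathway in mouse hearts at embryonic day E11.5. The genes were *Srf*, its coactivators *Myocd*, *Mkl1* and *Mkl2*, and the smooth muscle genes *Acta2*, *Tagln*, *Myh11*, *Cnn1*, *Smtn* and *Lmod1*. They are 10 of the 22380 protein-coding genes of the annotation, GENCODE vM1 on mouse assembly NCBIM37 (mm9). A region was assigned to a gene when it overlapped the gene body or lay within 5 kb of any annotated transcription start site (TSS) of the gene, a stretch called the window of the gene. The main TSS of a gene is the most upstream start of a protein-coding transcript. This gave 153 regions of the 358833 in the merged H3K4 methylation list, and no region was assigned to more than 1 of the 10 genes.

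The study asked where H3K4 methylation is lost when the methyltransferase gene *Kmt2d* is deleted in heart muscle, and it compared E11.5 hearts of C57BL/6 strain mice of 2 genotypes by ChIP-Seq. Controls were *Tnnt2::Cre*; *Kmt2d* fl/+ ; mTmG/+ and mutants were *Tnnt2::Cre*; *Kmt2d* fl/fl ; mTmG/+. Each genotype had 3 pools of 30 hearts, from which input, H3K4me1, H3K4me2 and H3K4me3 libraries were made, 24 heart libraries in 8 groups of 3. A further 3 libraries of the series, KMT2D ChIP-Exo from cardiomyocytes, were not analysed here. Both genotypes carried the Cre transgene and the mTmG reporter, and the controls were heterozygous for the floxed allele although their sample titles carry the abbreviation WT. The *Tnnt2* promoter drives Cre in the embryonic heart muscle, whereas whole hearts were profiled. Endothelial, epicardial and other cells were thus included, in which deletion of *Kmt2d* was not intended. Whether these cells kept *Kmt2d* was not measured here.

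SRF is a transcription factor that binds the CArG box, a pair of C followed by 6 bases that are each A or T and a pair of G. Myocardin and the myocardin-related factors encoded by *Mkl1* and *Mkl2* do not bind the box alone but join SRF on it and switch on genes of muscle and of the actin cytoskeleton. Several smooth muscle genes of this pathway, among them *Acta2* and *Tagln*, are known to be switched on for a time in the early embryonic heart muscle before they become restricted to smooth muscle. Of the histone marks, H3K4me1 is found mainly at enhancers, H3K4me2 at enhancers and promoters, and H3K4me3 at active promoters.

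The deposited data were 3 lists of regions: 1 merged list of H3K4me1, H3K4me2 and H3K4me3 peaks, and the authors' lists of regions with decreased H3K4me1 and with decreased H3K4me2 in mutant hearts. The merged list does not say which of the 3 marks a region carries. The lists hold positions only, so the depth behind each region is unknown, no value per pool was used here, and no difference could be set against the spread between pools. A region is called listed below when its coordinates match an entry of a decreased list exactly, and a region outside the lists may still have changed. Exons and introns are numbered in the coding transcript with most exons. As a check of the tissue, the main TSS lay inside a merged region in 5 of 5 cardiomyocyte markers, 3 of 4 endothelial and endocardial markers, 4 of 4 epicardial markers, 1 of 3 blood markers and 0 of 3 liver markers. Regions of decreased H3K4me1 lay at 2 of these cardiomyocyte markers, 1 endothelial and endocardial marker and no epicardial, blood or liver marker, where 7.08% of coding genes with a region had one. Regions of decreased H3K4me2 lay at 2 cardiomyocyte, 2 blood and 2 liver markers and at no endothelial, endocardial or epicardial marker, where 28.7% of coding genes had one.

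Of the 153 regions at the 10 genes, 4 were in the list of decreased H3K4me1 and 3 in that of decreased H3K4me2, and 0 were in both. The H3K4me1 share was 2.61% (95% Wilson interval 1.02% to 6.53%), where 0.761% of all merged regions and 0.935% of merged regions at protein-coding genes were listed. The H3K4me2 share was 1.96% (0.669% to 5.61%), where 1.87% of all merged regions and 2.69% of those at protein-coding genes were listed. By gene, 3 of the 10 had a region of decreased H3K4me1 (30.0%, Wilson interval 10.8% to 60.3%), against 7.08% of the 20025 coding genes with a region. For decreased H3K4me2 the count was again 3 of 10, against 28.7% of coding genes, so that this share was near the background. The Wilson intervals cover counting error only and treat neighbouring regions as independent, which they are not. The genes were chosen with earlier results of these data known, so the intervals are no test of an excess. The 10 genes also had more regions, with a median of 11 against 5 over coding genes with a region. In whole hearts, fewer cells that carry a mark and less of the mark per cell cannot be told apart.

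**Figure D1:**
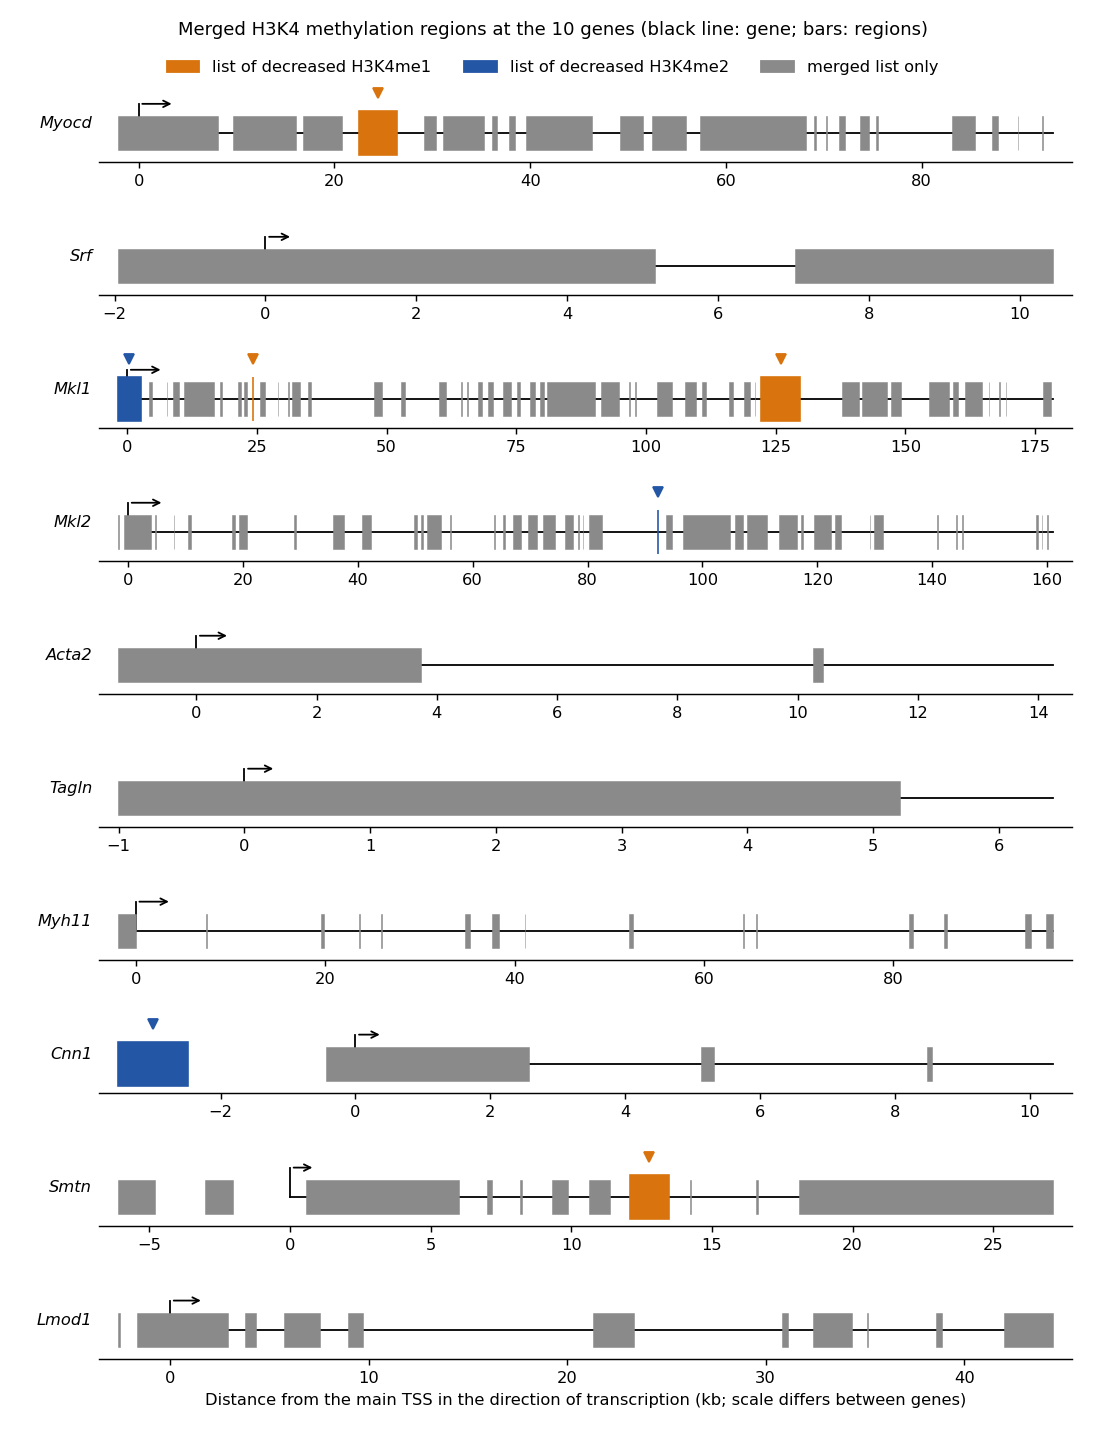
Merged regions (bars) at the 10 genes, by distance from the main TSS in kb in the direction of transcription, with a separate scale for each gene. Orange bars are the 4 regions in the list of decreased H3K4me1, blue bars the 3 in the list of decreased H3K4me2 and grey bars the other merged regions; the narrowest bars are drawn with a minimum line width. A reader should see listed regions at *Myocd*, *Mkl1*, *Mkl2*, *Cnn1* and *Smtn* and none at the other 5 genes.

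The 7 listed regions lay at 5 genes, *Myocd*, *Mkl1*, *Mkl2*, *Cnn1* and *Smtn*. *Srf*, *Acta2*, *Tagln*, *Myh11* and *Lmod1* had none, and only *Mkl1* had regions in both lists. The main TSS lay inside a merged region in 9 of the 10 genes, all but *Smtn*, against 67.5% of all coding genes. None of these 9 TSS regions was in the list of decreased H3K4me1, in which 0.649% of such TSS regions of coding genes were listed. The TSS region of *Mkl1* was in the list of decreased H3K4me2, 1 of 9 or 11.1% (1.99% to 43.5%), where 28.7% of the main TSS of 15106 coding genes were listed.

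Among the regulators, *Srf* encodes the CArG-binding factor itself. It lies on the minus strand at chr17:46683788-46693111 and had 2 merged regions, which covered 65.7% of its window, the highest share of the 10 genes. The region over its TSS, chr17:46687946-46695065, was 7120 bp wide and ran from 1954 bp upstream of the TSS over exons 1 to 4, and 84.2% of TSS regions of coding genes were narrower. The other region, of 3420 bp, overlapped exon 7 and also held a TSS of the neighbouring gene *Cul9*. Neither was listed for either mark, and the nearest listed regions lay 35.6 kb (H3K4me1) and 68.6 kb (H3K4me2) from the TSS.

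The *Srf* promoter held a pair of CArG boxes, at positions -82 and -62 from the TSS, and is shown because it is the one promoter of the 10 with more than 1 box in the 250 bases before the TSS. The sequence is the minus strand of chr17:46693144-46693213, with the boxes in capitals.
Srf: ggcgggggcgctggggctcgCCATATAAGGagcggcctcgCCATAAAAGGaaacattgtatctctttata

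*Myocd* encodes myocardin, which is made in heart and smooth muscle. The gene lies on the minus strand at chr11:64990063-65083491, is 93.4 kb long and had 21 merged regions of 80 to 10900 bp with a median of 1260 bp. They covered 61.1% of its window, whereas the median over 1109 coding genes of like length was 16.9%, and 96.8% of those genes were covered less. The number of regions was close to that of these genes, whose median was 20, so the difference lay in the width of the regions. The region over the main TSS, chr11:65075426-65085585, was 10160 bp wide, held 4 of the 7 annotated TSS and was wider than 92.9% of TSS regions of coding genes. The widest region, chr11:65015266-65026165, was 10900 bp, overlapped exon 6 and held an internal TSS.

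The single listed region at *Myocd* was in the list of decreased H3K4me1. It spanned 3820 bp of intron 1, chr11:65057146-65060965, began 22.5 kb downstream of the main TSS and held no TSS. Of merged regions with no TSS inside and a width of 2000 to under 4000 bp, 2.98% were in this list. Its neighbours on both sides, of 1260 bp at a gap of 2800 bp and of 4060 bp at a gap of 1700 bp, lay in the same intron and were not listed. No *Myocd* region was in the list of decreased H3K4me2, and the nearest such region lay 376 kb from the TSS.

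*Mkl1* encodes myocardin-related transcription factor A, which is held in the cytoplasm by monomeric actin and moves into the nucleus when actin is polymerised. The gene lies on the minus strand at chr15:80842711-81021187, is 178 kb long and had 46 merged regions of 60 to 9200 bp, the most of the 10 genes. They covered 40.9% of its window, against a median of 16.9% over 548 coding genes of like length. Of the 46 regions, 40 lay in introns.

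*Mkl1* held 3 of the 7 listed regions. The region over its main TSS, chr15:81018586-81022925, was in the list of decreased H3K4me2, was 4340 bp wide and ran from 1738 bp upstream to 2601 bp downstream of the main TSS. It held 5 of the gene's 11 annotated TSS and a TSS of the noncoding gene *4930483J18Rik*. Of TSS regions of coding genes with a width of 4000 to under 8000 bp, 35.4% were in this list. The other 2 listed regions were in the list of decreased H3K4me1. One spanned 7520 bp of intron 3, chr15:80891446-80898965, was the second widest of the gene and lay 122 kb from the main TSS. Of merged regions of 4000 to under 8000 bp with no TSS inside, 5.80% were in that list. The other was only 140 bp wide and lay in intron 1 at chr15:80996866-80997005, 24.2 kb from the main TSS. In the class of 100 to under 200 bp with no TSS inside, 0.308% were listed.

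*Mkl2* encodes myocardin-related transcription factor B. The gene lies on the plus strand at chr16:13256574-13417622, is 161 kb long and had 40 merged regions of 60 to 8280 bp, which covered 29.2% of its window. The region over its main TSS, chr16:13255806-13260585, was 4780 bp wide and was in neither list. The widest region, chr16:13353146-13361425, lay in intron 3 and held an internal TSS. The 1 listed region, in the list of decreased H3K4me2, was 140 bp wide and lay in intron 3 at chr16:13348766-13348905, 92.2 kb from the main TSS and 9609 bp from the nearest annotated TSS. Of regions of 100 to under 200 bp with no TSS inside, 0.592% were in this list.

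The narrow listed regions of *Mkl1* and *Mkl2* are shown in full because each call rests on a stretch of only 140 bp. Both are given on the strand of their gene, the minus strand of chr15:80996866-80997005 and the plus strand of chr16:13348766-13348905, with CG pairs in capitals.
Mkl1: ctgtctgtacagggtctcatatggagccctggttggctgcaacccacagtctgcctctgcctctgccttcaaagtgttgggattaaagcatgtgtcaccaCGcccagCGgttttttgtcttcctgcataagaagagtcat
Mkl2: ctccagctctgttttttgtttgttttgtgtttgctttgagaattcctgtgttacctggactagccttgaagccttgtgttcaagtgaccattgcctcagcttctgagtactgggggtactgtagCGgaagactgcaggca
They held 2 and 1 CG pairs and no CArG box. No 32-base word of either stretch occurred more than once in the assembly. Only exact words were counted, so the search does not show whether a stretch comes from a repeat whose copies have diverged. For the 5 wider listed regions the share of repeated words ran from 0% at *Smtn* to 3.27% at *Cnn1*.

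Of the smooth muscle genes, *Acta2* encodes smooth muscle alpha-actin. It lies on the minus strand at chr19:34315580-34329826 and had 2 regions, 5040 bp over the TSS (chr19:34326086-34331125, exons 1 to 3) and 160 bp over exon 7. Coverage of its window, 27.0%, was close to the median of 26.1% over 1908 coding genes of like length. Neither region was listed, and the nearest listed regions were far away, at 2186 kb for H3K4me1 and 490 kb for H3K4me2, whereas the medians over coding genes were 315 kb and 65.8 kb.

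*Tagln* encodes transgelin (SM22 alpha), an actin-binding protein. On the minus strand at chr9:45737711-45744141, it had a single region, chr9:45738926-45745145. It was 6220 bp wide, overlapped exons 1 to 4 of 5, and was wider than 79.3% of TSS regions of coding genes. It was in neither list. Of coding genes with a single region, 13.4% had it in the list of decreased H3K4me2 and 0.463% in that of decreased H3K4me1.

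*Myh11* encodes the smooth muscle myosin heavy chain, a marker of differentiated smooth muscle. The gene lies on the minus strand at chr16:14194620-14291501 and is 96.9 kb long, close to *Myocd* in length. Its 15 regions covered only 6.42% of its window, the lowest share of the 10 genes, and 15.4% of 1068 coding genes of like length were covered less. The widest was the region over the TSS, chr16:14291446-14293365, with 1920 bp, of which 1864 bp lay upstream of the TSS and 55 bp downstream. Only 17.0% of TSS regions of coding genes were narrower. All 15 regions were outside both lists.

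*Cnn1* encodes calponin 1, an actin-binding protein of contractile smooth muscle. At chr9:21903725-21914074 on the plus strand, it had 4 regions of 80 to 3020 bp. The region over its TSS, chr9:21903286-21906305, was 3020 bp wide, overlapped exons 1 and 2 and was in neither list. The listed region, of decreased H3K4me2, was 1040 bp wide and lay upstream of the gene at chr9:21900206-21901245, 2480 bp from the TSS. It held no TSS. Of regions of 1000 to under 2000 bp with no TSS inside, 0.893% were in this list. This region was assigned through the distance of 5 kb and not through the gene body.

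*Smtn* encodes smoothelin, a protein of contractile smooth muscle. The gene lies on the minus strand at chr11:3417526-3440615 and had 11 regions, more than 97.3% of 2035 coding genes of like length. The start of its most upstream coding transcript lay outside the merged regions, 570 bp before a region of 5440 bp, chr11:3434606-3440045, which held 6 of its 9 annotated TSS. The listed region, of decreased H3K4me1, was 1400 bp wide and lay at chr11:3427146-3428545, within intron 12 of the transcript with most exons, 12.1 kb from the main TSS. It held the start of a shorter *Smtn* transcript. Its neighbours, 740 bp and 700 bp away, were 60 and 740 bp wide and not listed. With a width of 1000 to under 2000 bp, 1.10% of all merged regions were in the list of decreased H3K4me1. The share was 0.313% for those over a main TSS of a coding gene. The widest *Smtn* region, 9020 bp at chr11:3413486-3422505, overlapped exons 19 to 22 and held a TSS of the neighbouring gene *Selm*.

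*Lmod1* encodes leiomodin 1, an actin-nucleating protein of smooth muscle. Its locus, chr1:137221384-137264642 on the plus strand, had 11 regions of 80 to 4580 bp, which covered 28.4% of its window. The widest was the region over the main TSS, chr1:137219706-137224285, with 4580 bp. None was listed, and the nearest listed regions lay 159 kb (H3K4me1) and 215 kb (H3K4me2) from the main TSS.

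Across the 9 genes with a region over the main TSS, the width ran from 1920 bp at *Myh11* to 10160 bp at *Myocd*, with a median of 4780 bp. Over 15106 coding genes the median was 3640 bp (quartiles 2340 and 5660 bp). Myocardin and SRF had the widest TSS regions and *Myh11* and *Cnn1* the narrowest. The TSS region of *Mkl1*, the one that was listed, was the third narrowest of the 9, whereas over coding genes wide TSS regions were listed more often.

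**Figure D2:**
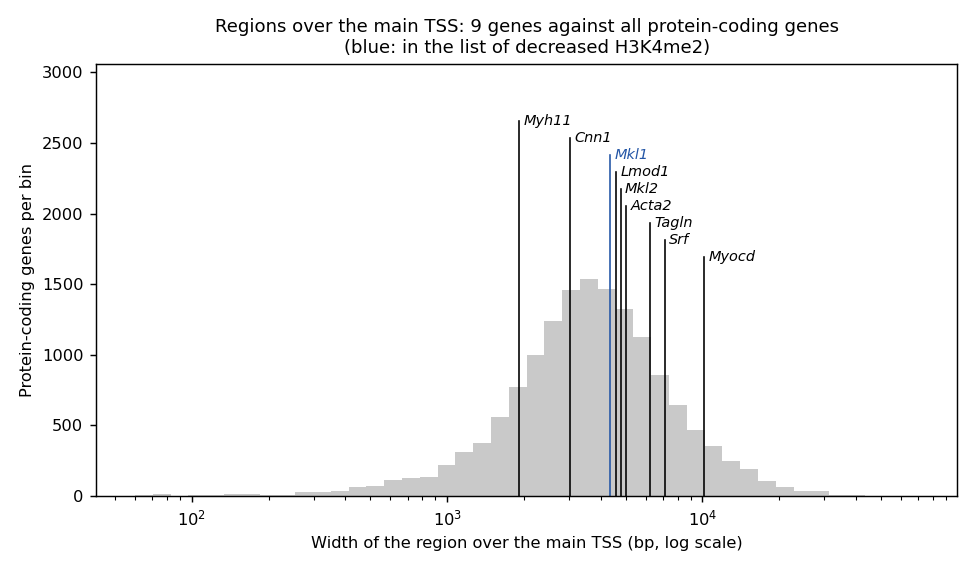
Width of the region over the main TSS in bp (log scale) for protein-coding genes (grey histogram, genes per bin) and for 9 of the 10 genes (vertical lines, whose heights carry no value). *Mkl1*, in blue, was in the list of decreased H3K4me2 at 4340 bp, while the wider regions of *Lmod1*, *Mkl2*, *Acta2*, *Tagln*, *Srf* and *Myocd* were in neither list.

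The coverage of the genes is set beside that of coding genes within a factor of 1.2 of their length in the plot of coverage and region number. Coverage was above the median of these genes in 8 of the 10 genes and below it in *Myh11* and *Cnn1*. *Myocd*, *Smtn* and *Srf* lay farthest up, with 96.8%, 91.9% and 90.7% of genes of like length covered less. Coverage of every gene also counts regions over a TSS of a neighbour, here those of *Selm* at *Smtn* and of *Cul9* at *Srf*. The 4 regulators had 109 regions with a median width of 880 bp, of which 3 were listed for H3K4me1 and 2 for H3K4me2. The 6 smooth muscle genes had 44 regions with a median of 510 bp, of which 1 was listed for each mark.

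**Figure D3:**
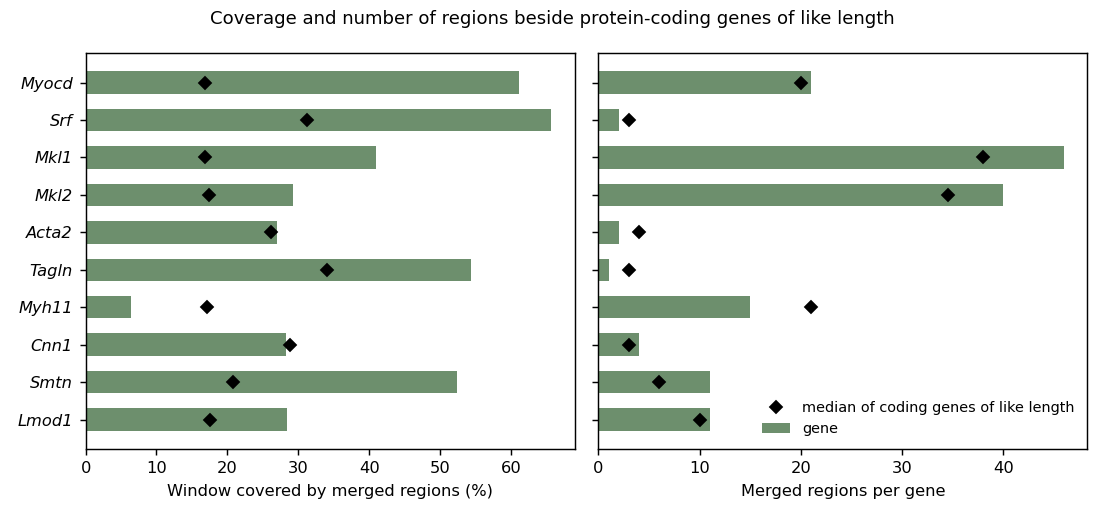
Percent of the gene's window covered by merged regions (left) and number of merged regions (right) for each of the 10 genes (bars), with the median over protein-coding genes within a factor of 1.2 of its length (diamonds). *Myocd* and *Myh11* had a like length and 21 and 15 regions, but 61.1% and 6.42% of their windows were covered.

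The share of genes with a listed region differed with the number of their regions. Of coding genes with 25 to 49 regions, the class of *Mkl1* and *Mkl2*, 22.9% had a region of decreased H3K4me1 and 42.9% one of decreased H3K4me2. With 15 to 24 regions, the class of *Myocd* and *Myh11*, the shares were 15.7% and 43.5%. With 10 to 14 regions, the class of *Smtn* and *Lmod1*, 190 of 1898 genes had the first and 35.4% the second. With 3 or 4 regions, the class of *Cnn1*, the shares were 2.36% and 23.6%. *Srf* and *Acta2* had 2 regions each, a class in which 1.28% and 19.7% of genes had a listed region.

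The listings were then set beside the width classes with and without a TSS. Had each of the 153 regions been listed as often as all merged regions of its width class with, or without, a TSS inside, 1.80 regions would be in the list of decreased H3K4me1 and 6.65 in that of decreased H3K4me2. The counts were 4 and 3. No test was made of these differences. The classes took no account of CpG content, with which the share of listed TSS regions also differed, as described below. Most of the gap for H3K4me2 lay at genes with wide unlisted regions, *Myocd* (1.23 against a count of 0), *Smtn* (0.84 against 0) and *Srf* (0.53 against 0), and at *Mkl1* (1.61 against 1). The values of *Smtn* and *Srf* include a region of 9020 bp and one of 3420 bp. These held a TSS of the neighbouring genes *Selm* and *Cul9* and none of their own gene. For H3K4me1, *Mkl1* had 2 regions where the class shares gave 0.56 and *Smtn* 1 where they gave 0.11.

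**Figure D4:**
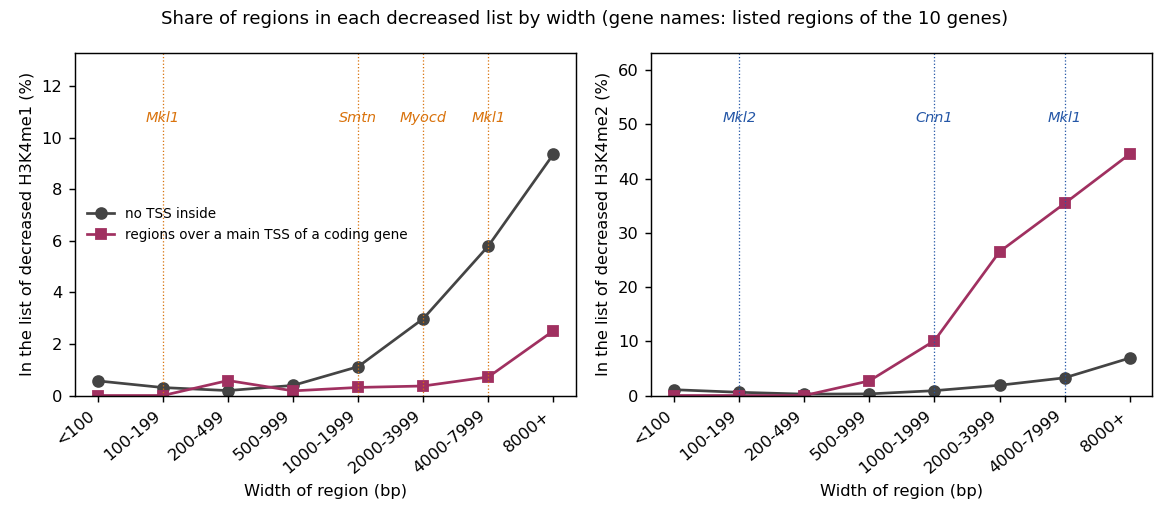
Share of regions in the list of decreased H3K4me1 (left) and of decreased H3K4me2 (right), in percent, by width in bp, for merged regions with no TSS inside (circles) and regions over a main TSS of a coding gene (squares). Gene names and dotted lines mark the width classes of the 7 listed regions at the 10 genes, which ranged from 140 to 7520 bp; the height of a name carries no value.

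CpG content, which the choice of genes did not use, was lower at the smooth muscle genes than at the regulators. The CpG ratio, the number of CG pairs over that given by the base composition, was taken over 500 bases on each side of the main TSS. It was 0.55 at *Myocd*, 0.82 at *Srf*, 0.84 at *Mkl1* and 0.82 at *Mkl2*. For the smooth muscle genes it ran from 0.23 at *Cnn1* to 0.44 at *Smtn*, with 0.34 at *Acta2*, 0.35 at *Tagln*, 0.31 at *Myh11* and 0.33 at *Lmod1*. These ranges did not overlap, but their nearest values, 0.44 at *Smtn* and 0.55 at *Myocd*, were close. The *Smtn* value was taken around a start that lay outside the merged regions. The median over coding genes was 0.553, and 39.7% of genes were under 0.4, a limit that *Smtn* exceeded.

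**Figure D5:**
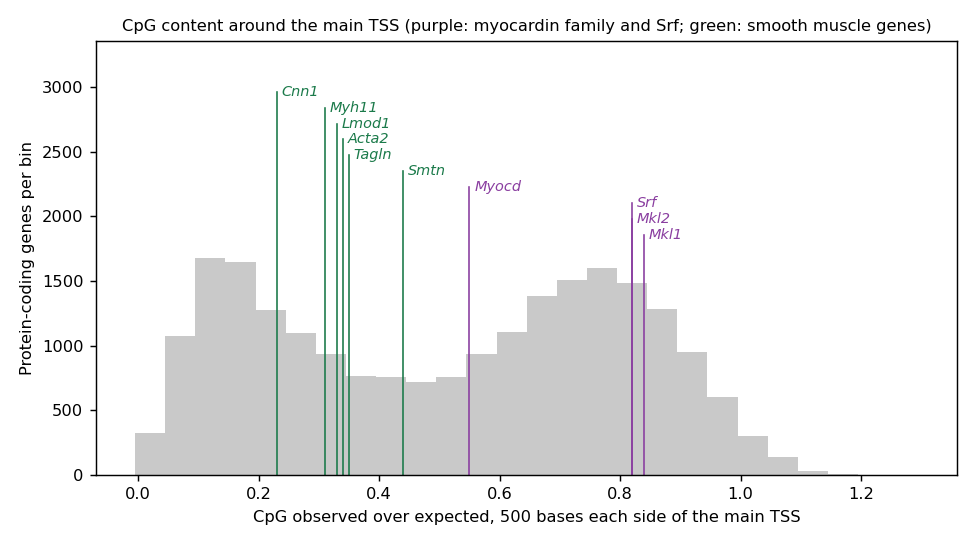
CpG ratio over 500 bases on each side of the main TSS for protein-coding genes (grey histogram, genes per bin) and the 10 genes (vertical lines, whose heights carry no value). The 6 smooth muscle genes (green) lay between 0.23 and 0.44 and the 4 regulators (purple) between 0.55 and 0.84.

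The promoter of *Mkl1*, over which H3K4me2 was listed as decreased, and that of *Cnn1*, which had the lowest ratio, are shown as the ends of this range. Each stretch holds the 250 bases before the main TSS on the strand of the gene, the minus strand of chr15:81021188-81021437 and the plus strand of chr9:21903475-21903724, with CG pairs in capitals.
Mkl1: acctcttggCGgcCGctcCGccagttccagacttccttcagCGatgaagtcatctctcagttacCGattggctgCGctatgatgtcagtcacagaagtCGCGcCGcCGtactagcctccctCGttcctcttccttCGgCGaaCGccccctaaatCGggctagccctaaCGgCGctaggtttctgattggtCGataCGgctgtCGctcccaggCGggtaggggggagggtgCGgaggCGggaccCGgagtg
Cnn1: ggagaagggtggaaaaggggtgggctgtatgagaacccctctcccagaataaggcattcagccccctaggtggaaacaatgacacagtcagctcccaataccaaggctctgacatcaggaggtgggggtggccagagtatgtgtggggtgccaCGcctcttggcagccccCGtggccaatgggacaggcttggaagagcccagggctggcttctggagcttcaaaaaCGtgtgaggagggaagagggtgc
The *Mkl1* stretch held 24 CG pairs and the *Cnn1* stretch 3. Over coding genes, the share of main TSS inside a merged region was 26.5% at a ratio under 0.4, 82.5% from 0.4 to under 0.6 and 98.3% at 0.6 or more. Among these TSS regions 8.39%, 16.3% and 36.7% were in the list of decreased H3K4me2, and 1.91%, 0.456% and 0.405% in that of decreased H3K4me1. With a width of 2000 to 8000 bp the shares were 10.7%, 18.1% and 36.6% for H3K4me2 and 2.92%, 0.497% and 0.179% for H3K4me1. *Srf*, *Mkl1* and *Mkl2* were in the highest class, *Myocd* in the middle one, and *Acta2*, *Tagln*, *Myh11*, *Cnn1* and *Lmod1* in the lowest, in which none of their TSS regions was listed. These 5 smooth muscle genes had a merged region over a TSS of a kind that mostly lacked one.

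CArG boxes were searched as exact matches. Stretches that depart from the pattern at a single base were not counted, among them ccctatatgg and ccttgtttgg before the TSS of *Acta2*. The counts therefore do not say which promoters lack a site for SRF. The pattern reads the same on both strands. In the 250 bases before the main TSS, *Srf* and *Tagln* held a box, 2 of 10 genes against 1.33% of 22380 coding genes. Within 1000 bases *Myh11* was added, 3 of 10 against 5.58%. Inside the region over the main TSS a box was found in 5 of 9 genes, *Srf*, *Acta2*, *Tagln*, *Myh11* and *Cnn1*, against 19.7% of coding genes. This share was not matched for width. Of TSS regions of coding genes 6.46% held a box at 1000 to under 2000 bp and 12.8% at 2000 to under 4000 bp. At 4000 to under 8000 bp the share was 25.8%, and at 8000 bp or more 45.8%. The genes were chosen for their known link to SRF, so these counts describe the sequence and are not a finding about the marks. The boxes of the smooth muscle genes are given on the strand of each gene, which is minus for *Tagln*, *Myh11* and *Acta2* and plus for *Cnn1*, with the box in capitals and 20 bases on each side. Those of *Acta2* and *Cnn1*, in intron 1, were chosen after their places were seen.
Tagln, -112, chr9:45744224-45744273: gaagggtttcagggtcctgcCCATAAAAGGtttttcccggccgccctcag
Myh11, -922, chr16:14292394-14292443: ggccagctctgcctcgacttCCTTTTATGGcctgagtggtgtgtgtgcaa
Acta2, intron 1 at 1039, chr19:34328758-34328807: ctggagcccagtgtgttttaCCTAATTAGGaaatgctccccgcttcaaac
Acta2, intron 1 at 2134, chr19:34327663-34327712: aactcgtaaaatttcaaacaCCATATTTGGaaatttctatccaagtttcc
Cnn1, intron 1 at 845, chr9:21904550-21904599: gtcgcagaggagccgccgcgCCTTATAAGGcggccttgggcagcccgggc
Numbers before the coordinates count bases from the main TSS to the first base of the box. *Tagln* held a further box, CCAAATATGG, at 11 in exon 1.

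The regions of the 10 genes held 17 boxes in 13 regions, and each gene had at least 1. Of coding genes with a region, 33.4% had a box in one. Per 100 kb of merged region the density was 6.77 boxes at the 10 genes and 5.42 over all merged regions. None of the 7 listed regions held a box, among them 4 under 2000 bp. In the classes of 2000 to under 4000 bp and of 4000 to under 8000 bp, 13.3% and 24.9% of all merged regions held one. At *Myocd* the only box lay in intron 1 at 19961 from the main TSS, in the unlisted region of 4060 bp next to the listed one. *Srf* held 4 boxes, the pair in its promoter, 1 in intron 2 and 1 in exon 7.

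In the RefSeq promoters of the mouse, of another build and read only by sequence, 7 of the 10 genes had an entry, and 1 of these 7, *Srf*, held boxes, again at -82 and -62. Of all 32851 RefSeq promoters 1.63% held a box. *Myocd*, *Tagln* and *Myh11* had no entry.

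The wider pathway was described from 5 lists of 65 genes. Their main TSS lay in a merged region in 64 genes. A region of decreased H3K4me1 was found at 9 of the 65 (13.8%, against 7.08% of coding genes) and one of decreased H3K4me2 at 22 (33.8%, against 28.7%). The region over the main TSS was in the H3K4me1 list in 2 of the 64 genes (3.12%, against 0.649% of coding genes) and in the H3K4me2 list in 21 (32.8%, against 28.7%), so that the H3K4me2 shares were near the background. The 2 H3K4me1 regions were 16660 bp at *Wdr1* and 3480 bp at *Ckm*. Over coding genes the H3K4me1 share differed with the width of the TSS region. It was 0.369% at 2000 to under 4000 bp, 0.719% at 4000 to under 8000 bp and 2.51% at 8000 bp or more. The H3K4me2 listing included the main TSS in 21 of 22 genes and the H3K4me1 listing in 2 of 9. Over all coding genes with a listing the main TSS was included in 75.6% for H3K4me2 and 6.92% for H3K4me1. The counts of single lists are small and are given as descriptions, to be read against these shares of all coding genes and against the widths of their TSS regions. The lists were not matched for the number of regions per gene. Of coding genes with 1 region 0.463% had one of decreased H3K4me1, and of those with 50 or more 39.4%.

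Among 12 partners and regulators of SRF, 1 had a region of decreased H3K4me1 (8.33%, against 7.08% of coding genes) and 5 one of decreased H3K4me2 (41.7%, against 28.7%). Their TSS regions had a median width of 6960 bp, and 35.4% of TSS regions of 4000 to under 8000 bp were in the H3K4me2 list. The H3K4me2 regions included 9320 bp over the TSS of *Rhoa*, a GTPase that drives actin assembly, 9940 bp over that of its kinase target *Rock2*, and 6900 bp over that of *Hopx*, which represses SRF in the heart. The H3K4me1 region, 920 bp, lay at *Fhl2*, a LIM protein that competes with the myocardin-related factors for SRF. Among 10 actin cytoskeleton targets of SRF, 6 had decreased H3K4me2 (against 28.7% of coding genes), all 6 over the main TSS, among them *Actb* (8680 bp), *Actg1* (10480 bp), *Pfn1* (14180 bp) and *Cfl1* (8100 bp), genes of cytoplasmic actins and of proteins that bind them. A further gene of that list, *Wdr1*, had 16660 bp of decreased H3K4me1 over its main TSS. These TSS regions were wide, with a median of 9830 bp over the list, and of TSS regions of coding genes with 8000 bp or more 44.5% were in the H3K4me2 list.

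Among 10 immediate early targets, 0 had decreased H3K4me1 (7.08% of coding genes) and 4 had decreased H3K4me2 over the main TSS, *Junb*, *Ier2*, *Cyr61* and *Mcl1*. The median TSS region of this list was 9360 bp wide, a class in which 44.5% were listed for H3K4me2, so that 4 of 10 was near the background. Among 12 heart muscle targets, 2 had a region of decreased H3K4me1 (16.7%, against 7.08% of coding genes) and 3 one of decreased H3K4me2 (against 28.7%, and against 44.5% for TSS regions of 8000 bp or more, where the median of this list, 10110 bp, lay). *Actc1*, the cardiac actin, *Myl2*, the ventricular myosin light chain, and *Ankrd1* had decreased H3K4me2 over the main TSS (12960, 9520 and 7240 bp), and *Ckm*, the muscle creatine kinase, had decreased H3K4me1 there (3480 bp). Among 21 other smooth muscle contractile and cytoskeletal genes, 5 had decreased H3K4me1 (23.8%, against 7.08% of coding genes) and 4 had decreased H3K4me2 (19.0%, against 28.7%). These shares too were not matched for the number of regions per gene. The H3K4me2 regions lay over the main TSS and the H3K4me1 regions did not, though that of 3380 bp at *Mylk* held another TSS of the gene. Over coding genes 0.649% of main TSS regions were in the H3K4me1 list. *Mylk*, the myosin light chain kinase, had 3 of the H3K4me1 regions (60, 3380 and 4820 bp), and *Tpm2*, *Synpo2*, *Vcl* and *Csrp1* had 1 each. The 4 with decreased H3K4me2 were *Cald1* (17680 bp), *Tpm1* (16300 bp), *Vcl* (14660 bp) and *Cnn2* (12740 bp).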

How the data were processed

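The authors made ChIP-Seq libraries of E11.5 hearts, called H3K4me1, H3K4me2 and H3K4me3 peaks and merged them, and deposited 3 lists of regions (chromosome, start, end), with no score, read count or value per replicate. Per the submitters' processing notes the tools were CASAVA 1.8.2, FastQC, Bowtie2, Bowtie and SAMtools, with build mm9. The peak caller and the test behind the decreased lists are not given in the sources used here. Groups came from the sample titles. The label for the replicate number did not match the titles for H3K4me2.

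Coordinates were made 1-based. Regions were assigned to genes of GENCODE vM1 by an overlap of 1 bp or more with the body or 5 kb around a TSS. All 10 genes were named, with their listed regions, TSS regions and widest regions, and pathway genes with a listed region could be named, at most 12 per list by width; not all of them are. Exons and introns were numbered in the coding transcript with most exons. The genes and lists were chosen with earlier results of these data known. Shares have 95% Wilson intervals, and no test was made. Uniqueness was the share of 32-base words found more than once in the assembly, as exact matches only. Assignment and motif search were tested on simulated data. Python 3.11.15, numpy 2.4.6, scipy 1.17.1 and pysam 0.24.0 were used.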

Additional observations from a re-analysis of the deposited data

How the results depend on the processing

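Of 53 alternative values of 9 results, 50 stayed within a factor of 1.5. The number of regions at the 10 genes, 153, fell to 92 with regions of at least 500 bp and to 66 with at least 1000 bp, since narrower regions were left out. The number of genes with a CArG box before the TSS, 2, was 1 with RefSeq promoters, which have no entry for *Tagln*; this alternative, and the count of genes with any annotated TSS in a merged region (10), were chosen after seeing the data. Genes with decreased H3K4me1 numbered 3 under every distance, overlap, width and transcript alternative. Genes with decreased H3K4me2 numbered 3 or 2: *Mkl2* was lost at the width limits, and *Cnn1* when regions had to lie in the gene body or within 1 kb of a TSS. With a distance of 20 kb, 1 further region of decreased H3K4me2 was assigned to *Cnn1*, over the TSS of *Elof1*, and 1 of decreased H3K4me1 to *Smtn*, over that of *Inpp5j*. With the start of the longest coding transcript as main TSS, all 10 genes had a region over it and the median width was 5240 bp. No paired analysis was possible because the lists hold no value per replicate, and for the same reason leaving out a replicate was not run. Depth is unknown, so a narrow or weakly marked region outside the lists cannot be read as unchanged.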

Other observations

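At the edge of the 5 kb limit, outside the gene bodies, the outermost regions assigned were at 4811 bp from a TSS for *Smtn*, 2519 bp for *Lmod1*, 2480 bp for *Cnn1* and 1569 bp for *Mkl2*. The nearest regions left out lay at 5009 bp for *Mkl2*, 5465 bp for *Tagln* and 5645 bp for *Myh11*, and from 6319 to 12526 bp for the other 7 genes. Of these 14 regions only that of *Cnn1*, which was assigned, was in a decreased list.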
